A study of Mus musculus with 119 samples.

Results

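The response of macrophages that lack TPL-2 kinase activity to 2 h of LPS was measured by RNA-seq in 12 libraries, which belong to the 62 libraries of 3 genotypes (Map3k8[D270A], wild type and the Elk1 and Elk4 double knockout) that were fitted together and to a larger series. The double knockout, at the same times, served only for the filter on low values and the estimate of spread. Bone marrow-derived macrophages (BMDMs) of the labelled genotype Map3k8[D270A] and strain C57BL/6(NIMR) were left unstimulated (0 h, n = 6) or received LPS at 100 ng/ml for 2 h (n = 6). These libraries, hereafter D270A, were chosen by their genotype and time labels alone, and all their genes were open to test. The Map3k8[D270A] allele is a point mutation in the gene itself that leaves the TPL-2 protein without catalytic activity and is present in every cell of the culture, and Map3k8 mRNA is no check of the genotype. Wild-type (WT) BMDMs of the same strain, without the mutation, were the reference at 0 h (n = 6) and 2 h (n = 4). Both genotypes were grown from bone marrow in L-cell conditioned medium and rested overnight in low serum before LPS, and none of these wells received an inhibitor. Nothing in the labels ties a library to an animal, so p-values measure the spread between libraries, which may be partly technical.

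LPS is sensed by the TLR4 receptor with CD14 and MD-2. The adaptor MYD88 relays the signal to the IkB kinases, which release NF-kB dimers from their IkB inhibitors, and to MAP kinases. The adaptor TRIF activates the transcription factor IRF3, which switches on interferon beta, and secreted interferon beta then induces interferon-stimulated genes through its receptor and transcription factors of the STAT and IRF families. TPL-2 is the kinase that links the IkB kinases to MEK and ERK in macrophages, and ERK in turn drives immediate early genes such as Fos and Egr1 through ternary complex factors. The comparison asks which part of the response is still present, or is lost, when the kinase step through TPL-2 is removed.

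Promoters of 5 genes are printed because they stand for the arms of the response described below: Nfkbia (an IkB inhibitor), Gbp5, Cxcl10 and Ifit1 (genes of the interferon and NF-kB arms that rose in D270A cells) and Sphk1 (the gene whose rise fell furthest short of WT). Each run is 300 bases of RefSeq sequence on the GRCm38.p6 build, from 250 bases before to 50 bases after an annotated start, 5′ to 3′ on the strand of the gene. Capitals mark the letters GGGANTTTC (an NF-kB site), GAAANNGAA (an interferon-stimulated response element) or TGANTCA (an AP-1 site) on either strand; matches to these motifs may overlap. The windows lie at chr12:55492598-55492897, minus strand, for Nfkbia; chr3:142496684-142496983, plus strand, for Gbp5; chr5:92348840-92349139, minus strand, for Cxcl10; chr19:34640639-34640938, plus strand, for Ifit1; and chr11:116531587-116531886, plus strand, for Sphk1. RefSeq gives Sphk1 5 windows, of which 1 held none of the motifs, 2 held only an interferon-stimulated response element and 2, which overlap, held an NF-kB and an AP-1 match each; the printed one was chosen for its matches.
Nfkbia: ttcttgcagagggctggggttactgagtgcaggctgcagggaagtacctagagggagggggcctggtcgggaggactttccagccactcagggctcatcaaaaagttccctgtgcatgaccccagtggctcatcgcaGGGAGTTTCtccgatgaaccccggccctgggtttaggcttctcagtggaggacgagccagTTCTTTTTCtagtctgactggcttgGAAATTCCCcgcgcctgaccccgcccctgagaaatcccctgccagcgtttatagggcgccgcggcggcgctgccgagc
Gbp5: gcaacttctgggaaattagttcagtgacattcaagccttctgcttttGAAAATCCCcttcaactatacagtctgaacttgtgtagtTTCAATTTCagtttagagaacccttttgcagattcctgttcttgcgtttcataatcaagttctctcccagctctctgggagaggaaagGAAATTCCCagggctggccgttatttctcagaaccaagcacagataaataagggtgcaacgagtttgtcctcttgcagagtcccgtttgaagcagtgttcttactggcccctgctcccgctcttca
Cxcl10: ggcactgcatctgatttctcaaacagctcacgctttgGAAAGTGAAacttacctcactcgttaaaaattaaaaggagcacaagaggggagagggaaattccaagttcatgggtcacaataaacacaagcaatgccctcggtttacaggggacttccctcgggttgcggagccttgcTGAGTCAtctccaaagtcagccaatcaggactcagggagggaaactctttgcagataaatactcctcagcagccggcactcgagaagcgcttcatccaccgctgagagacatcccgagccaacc
Ifit1: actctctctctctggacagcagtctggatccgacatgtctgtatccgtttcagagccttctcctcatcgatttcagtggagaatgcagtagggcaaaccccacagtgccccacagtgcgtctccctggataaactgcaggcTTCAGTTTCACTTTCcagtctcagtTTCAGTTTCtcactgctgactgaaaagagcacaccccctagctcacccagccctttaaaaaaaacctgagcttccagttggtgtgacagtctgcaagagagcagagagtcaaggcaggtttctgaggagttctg
Sphk1: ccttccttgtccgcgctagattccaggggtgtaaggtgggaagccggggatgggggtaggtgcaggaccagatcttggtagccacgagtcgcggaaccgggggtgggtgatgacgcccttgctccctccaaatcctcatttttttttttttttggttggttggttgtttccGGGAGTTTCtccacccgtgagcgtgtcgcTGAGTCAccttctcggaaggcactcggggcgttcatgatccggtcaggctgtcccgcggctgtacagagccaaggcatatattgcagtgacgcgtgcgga

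The Nfkbia window held 2 NF-kB matches, at 113 and 28 bases before the start, and 1 interferon-stimulated response element between them. The Gbp5 window held 2 NF-kB matches and 1 interferon-stimulated response element. The Cxcl10 window held 1 interferon-stimulated response element and 1 AP-1 match. Ifit1 held 3 interferon-stimulated response elements, of which 2 overlapped. In Sphk1, 1 NF-kB match lay 79 bases and 1 AP-1 match 50 bases before the start. A match is a description of letters, and no match says only that the letters are not in this window.

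Values were the deposited normalised log2 levels, with read depth unknown. Library medians lay between 9.04 and 9.09, and no libraries were identical. At 2 h the D270A libraries formed a pair of sets. Deviations from the group mean over all tested genes correlated at 0.29 to 0.66 within replicates 1 to 3 or 4 to 6 and at -0.82 to -0.58 between them, and the labels name no batch for this split. Fitted alone, replicates 1 to 3 gave 1010 genes called higher and 351 lower, and replicates 4 to 6 gave 724 and 223. Of the genes called over all 6, 675 higher and 180 lower were called in both sets. Slfn4, named because it was the 1 called gene whose sign differed, had a log2 fold change of 2.06 in the first set and -0.0088 in the second. The macrophage label held: Lyz2 (17.99), Csf1r (14.99) and Adgre1 (15.09), which encode lysozyme, the M-CSF receptor and F4/80, stood at high log2 means at 0 h. Defining markers of T cells (Cd3e), neutrophils (Elane, Ly6g), fibroblasts (Col1a1) and mast cells (Fcer1a) lay below the filter on low values. Some members of these lists passed it, namely 6 of 11 for neutrophils, 1 of 6 for fibroblasts, 1 of 5 for mast cells and 1 of 5 for B cells, and none of those was called. Of the 7 T and NK cell markers 1 passed, the T cell kinase Lck, and it rose by 2.10. Of the 5 dendritic cell markers 3 passed, of which the chemokine receptor Xcr1 (1.28) and the transcription factor Zbtb46 (1.49) rose, although not with 10 added to the linear values before the logarithm, and Ccr7 was not called (0.95). The summed level of the T and NK cell list, on a log2 scale, ranged from 4.14 to 4.51 at 0 h and from 5.37 to 6.49 at 2 h, and that of the dendritic cell list from 4.76 to 4.81 at 0 h and from 5.63 to 6.13 at 2 h. The part of such cells in the results was not tested. The summed level of the neutrophil markers, on a log2 scale, ranged from 6.24 to 7.01 at 0 h and from 6.48 to 7.41 at 2 h.

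LPS still changed a large share of the transcriptome in D270A cells. Of 11884 genes tested with limma, 835 were called higher at 2 h, which is 7.03% of those tested, and 261 were called lower, which is 2.2%. A call needed an adjusted p below 0.05 and a change of at least 2-fold, and "rose" and "fell" below mean called. Counts of list members that rose or fell in D270A cells are to be read against these shares of 7.03% and 2.2%. The median log2 fold change was 1.65 among the genes that rose and -1.25 among those that fell, against -0.0074 over all genes tested. Rises reached further than falls: 55 genes rose at least 16-fold and 0 fell that far, while 304 rose and 20 fell at least 4-fold. The 6 unstimulated and 6 stimulated libraries did not overlap for 824 of the genes that rose and 257 of those that fell, whereas 47.5% of all tested genes did not overlap. In a bulk culture, more or fewer cells of a kind cannot be told apart from more or less RNA per cell.

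**Figure D1:**
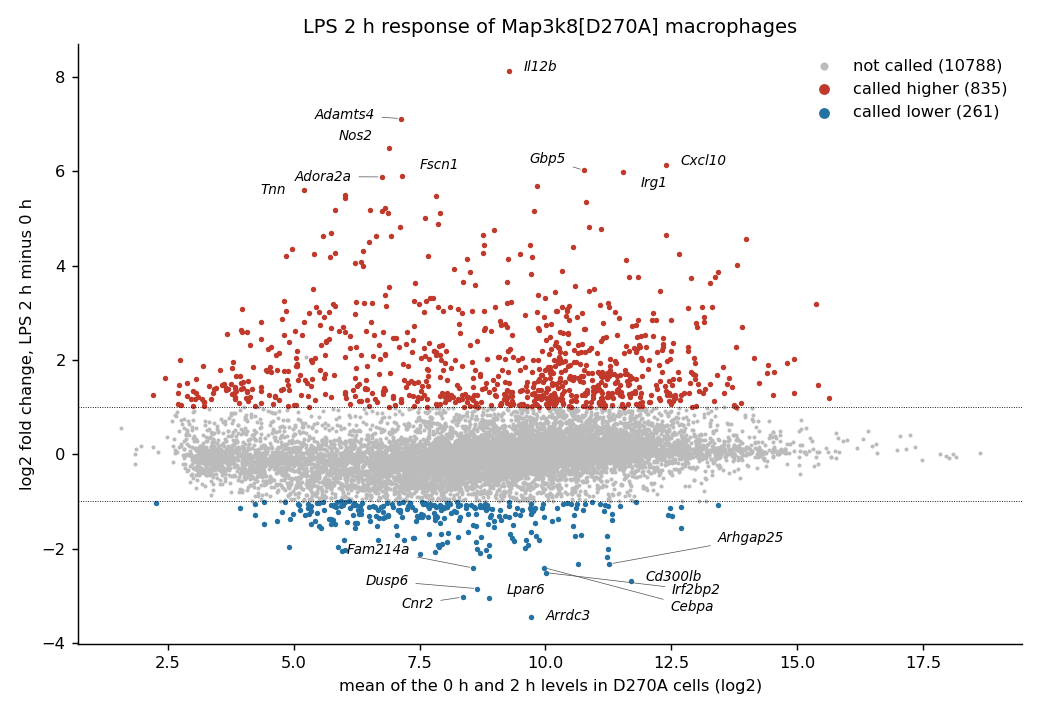
Each point is 1 of the tested genes in D270A cells, by the mean of its 0 h and 2 h log2 levels (x axis) and its log2 fold change at 2 h (y axis); dotted lines mark a 2-fold change. The 835 genes called higher reach 8.12 and the 261 called lower reach -3.44; labels name genes with the largest changes each way.

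The largest rise was that of Il12b, which encodes the p40 subunit shared by IL-12 and IL-23 (chr11:44400063-44414677). Il12b stood at 5.08, 5.19 and 5.32 (lowest, median and highest log2 level) at 0 h and at 12.68, 13.30 and 13.93 at 2 h. It rose 278-fold (log2 fold change 8.12 ± 0.25 SE, n = 6 and 6, adjusted p = 2.63e-34). Adamts4, a secreted metalloprotease that cleaves proteoglycans (chr1:171250129-171262267), rose by 7.12 ± 0.26 (SE). Adamts4 stood at 3.40, 3.57 and 3.75 (lowest, median and highest log2 level) at 0 h and at 9.46, 10.82 and 11.89 at 2 h. Nos2, the inducible nitric oxide synthase (chr11:78920787-78960226), rose by 6.50 ± 0.41 (SE). Nos2 stood at 3.48, 3.55 and 3.98 (lowest, median and highest log2 level) at 0 h and at 8.21, 10.15 and 11.92 at 2 h. Both genes were higher at 2 h in each of replicates 1 to 3 than in each of replicates 4 to 6. The log2 fold change of Nos2 was 8.13 in the first set and 4.87 in the second.

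Cxcl10, a chemokine for activated T cells (chr5:92346638-92348889), rose 70.3-fold from an already measurable level. Cxcl10 stood at 9.20, 9.30 and 9.55 (lowest, median and highest log2 level) at 0 h and at 15.00, 15.50 and 15.94 at 2 h. Gbp5, an interferon-inducible GTPase of cell-autonomous defence (chr3:142496934-142522344), rose by 6.02 ± 0.21 (SE) and Acod1, listed here under its older symbol Irg1, which makes itaconate (chr14:103047012-103056573), by 5.98 ± 0.15 (SE). Irg1 stood at 8.44, 8.52 and 8.65 (lowest, median and highest log2 level) at 0 h and at 14.16, 14.54 and 14.90 at 2 h. Other large rises were those of Fscn1 (an actin-bundling protein, 5.90), Adora2a (an adenosine receptor, 5.88) and Tnn (the matrix protein tenascin-N, 5.61). Tnn was the least even of them. Tnn stood at 2.32, 2.39 and 2.54 (lowest, median and highest log2 level) at 0 h and at 6.05, 8.42 and 9.38 at 2 h.

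The largest fall was that of Arrdc3, an arrestin-like protein of receptor trafficking (chr13:80883384-80896042). Arrdc3 stood at 11.30, 11.40 and 11.58 (lowest, median and highest log2 level) at 0 h and at 7.67, 7.94 and 8.46 at 2 h. It fell 10.9-fold (log2 fold change -3.44 ± 0.12 SE, n = 6 and 6, adjusted p = 2.96e-31). A pair of G protein-coupled receptors followed, Lpar6 for lysophosphatidic acid (-3.04) and the cannabinoid receptor Cnr2 (-3.03). Dusp6, a phosphatase of ERK whose own expression follows ERK activity (chr10:99263231-99267489), fell 7.21-fold, and 5.91-fold in WT, a difference of -0.29 (adjusted p = 0.132). Dusp6 stood at 9.89, 10.07 and 10.24 (lowest, median and highest log2 level) at 0 h and at 6.89, 7.24 and 7.46 at 2 h. Cebpa, a transcription factor of the myeloid lineage, fell too. Cebpa stood at 11.12, 11.15 and 11.24 (lowest, median and highest log2 level) at 0 h and at 8.40, 8.78 and 9.09 at 2 h (chr7:35119293-35121928), a log2 fold change of -2.4 ± 0.071 (SE). Other large falls were those of the myeloid surface receptor Cd300lb (-2.69), the corepressor Irf2bp2 (-2.51), Fam214a (-2.41) and the GTPase-activating protein Arhgap25 (-2.33).

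**Figure D2:**
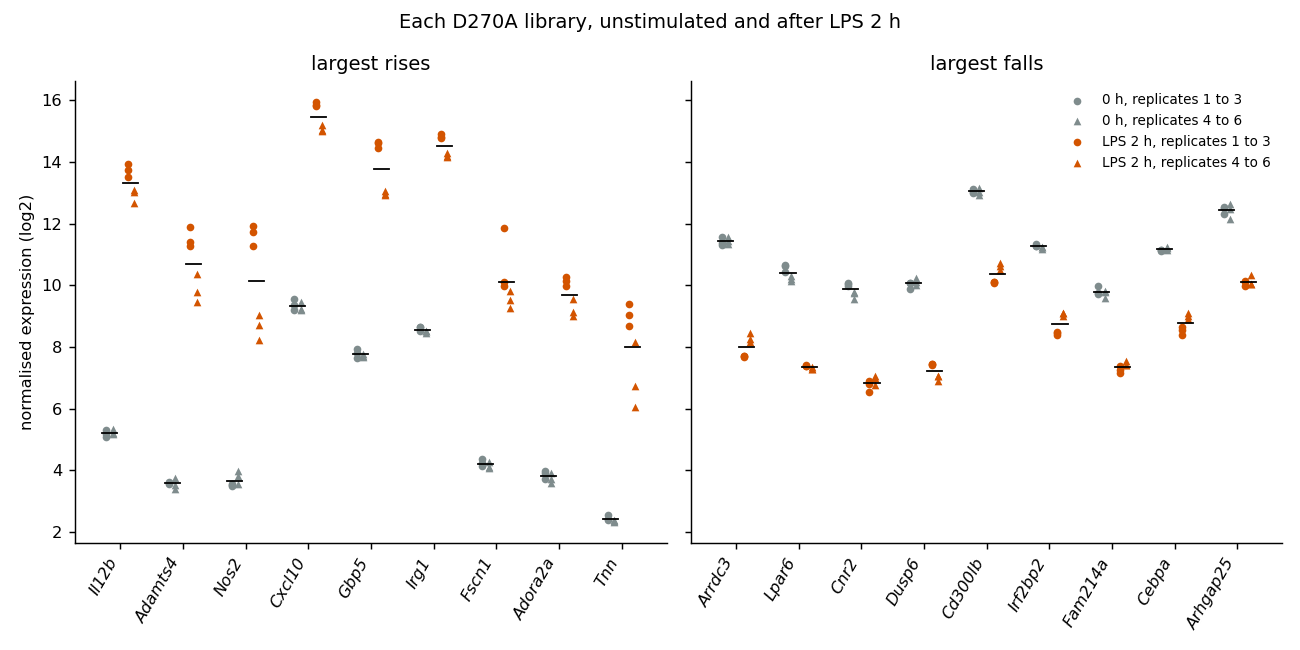
Log2 level (y axis) of genes with the largest rises (left) and falls (right) in each D270A library at 0 h (grey) and 2 h of LPS (orange); circles are replicates 1 to 3, triangles replicates 4 to 6, and bars the mean of 6. The genes were chosen among those whose groups do not overlap; Nos2 at 2 h runs from 8.21 to 11.92, with the first set above the second.

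Many genes of the NF-kB system rose. Of 11 genes for NF-kB subunits and IkB proteins, 10 rose and none fell, with a median log2 fold change of 2.27 against -0.0074 over all tested genes. Nfkbia, the IkB protein that NF-kB itself induces and that closes the loop, rose from a mean of 11.68 to 14.60, or 7.57-fold, and Nfkbiz, a nuclear IkB protein needed for secondary response genes, by 3.47. The subunits Rel (2.27) and Nfkb1 (1.90) rose, as did Rela (1.29), whose fold change dropped below the threshold under quantile normalization. Nfkbid was not called, with a log2 fold change of 0.73. Of 14 genes that damp NF-kB signalling, 9 rose and none fell. Among them were Tnfaip3, which encodes the deubiquitinase A20 (3.13), and Traf1 (3.05), while the deubiquitinase Cyld was near its resting level (0.18).

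Cytokines and chemokines made up much of the top of the response. Of 19 tested cytokine genes, 15 rose and none fell, with a median log2 fold change of 2.99; Il12a, Il33 and Csf3 were below the filter on low values. Tnf stood at 11.48, 11.55 and 11.59 (lowest, median and highest log2 level) at 0 h and at 14.47, 14.70 and 14.82 at 2 h, a rise of 8.7-fold. Il6 (4.70) and Il27 (5.48), which signal through receptors of the gp130 family, rose as well. Growth and survival factors for myeloid and lymphoid cells, Csf1 (3.11), Csf2 (1.56) and Il15 (2.49), rose too, although Csf2, like Lif and Il23a, was not called with 10 added to the linear values before the logarithm. Il10, the main anti-inflammatory cytokine of macrophages, was not called at 2 h (0.61, or 1.53-fold), nor was the IL-1 receptor antagonist Il1rn (0.63). The other uncalled cytokines were Il18 (0.47) and Osm (-0.10). All 17 tested chemokine genes rose, with Cxcl5 below the filter. Their median was 3.12, from 1.19 for Ccl9 to 6.14 for Cxcl10. The T cell attractant Ccl5 rose by 5.36, the monocyte attractant Ccl2 by 2.04, and the neutrophil attractants Cxcl1 and Cxcl2 by 3.37 and 2.22. Under quantile normalization 15 chemokines were called, and Ccl9 and Cxcl16 were not. With 10 added to the linear values before the logarithm, 16 were called.

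Interferon beta and most genes that answer to it rose. Ifnb1 stood at 4.54, 4.59 and 4.76 (lowest, median and highest log2 level) at 0 h and at 8.91, 9.27 and 9.45 at 2 h. Ifnb1, which encodes interferon beta (chr4:88522025-88522794), rose 24.8-fold (log2 fold change 4.63 ± 0.13 SE, adjusted p = 9.31e-37), with groups that did not overlap. Of 36 genes for interferon beta and interferon-stimulated products, 28 rose and none fell, with a median of 2.23. Under quantile normalization 25 were called higher, with a median of 1.86. The antiviral effectors Rsad2 (4.55) and Ifit1 (4.65) rose steeply, and Irf1, a transcription factor of the early wave, by 3.73. Mx2, which RefSeq lists as a transcribed pseudogene, rose by 4.45. Irf7 (0.91), which amplifies interferon signalling, was among the 8 not called, and was called when the 2 h replicate 4 or 5 was left out (1.036 and 1.023). The size of this arm differed between the sets of libraries. Of the 36 genes, 35 had a larger fold change in replicates 1 to 3, and the list median was 2.78 there and 1.66 in replicates 4 to 6. Of all 835 genes called higher, 659 also had the larger fold change in replicates 1 to 3. Ifnb1 was the 1 gene of the list with the opposite order, at 4.45 and 4.82. Mx1 stood at 9.56, 9.78 and 10.04 (lowest, median and highest log2 level) at 0 h and at 12.56, 13.56 and 14.50 at 2 h. Mx1, also listed by RefSeq as a transcribed pseudogene, rose by 4.74 in the first set and 2.77 in the second. Of the 18 lists described here this one had the widest gap between its medians for the sets. Over all tested genes these medians were -0.019 and -0.0052, and what part the split has in these fold changes was not tested.

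**Figure D3:**
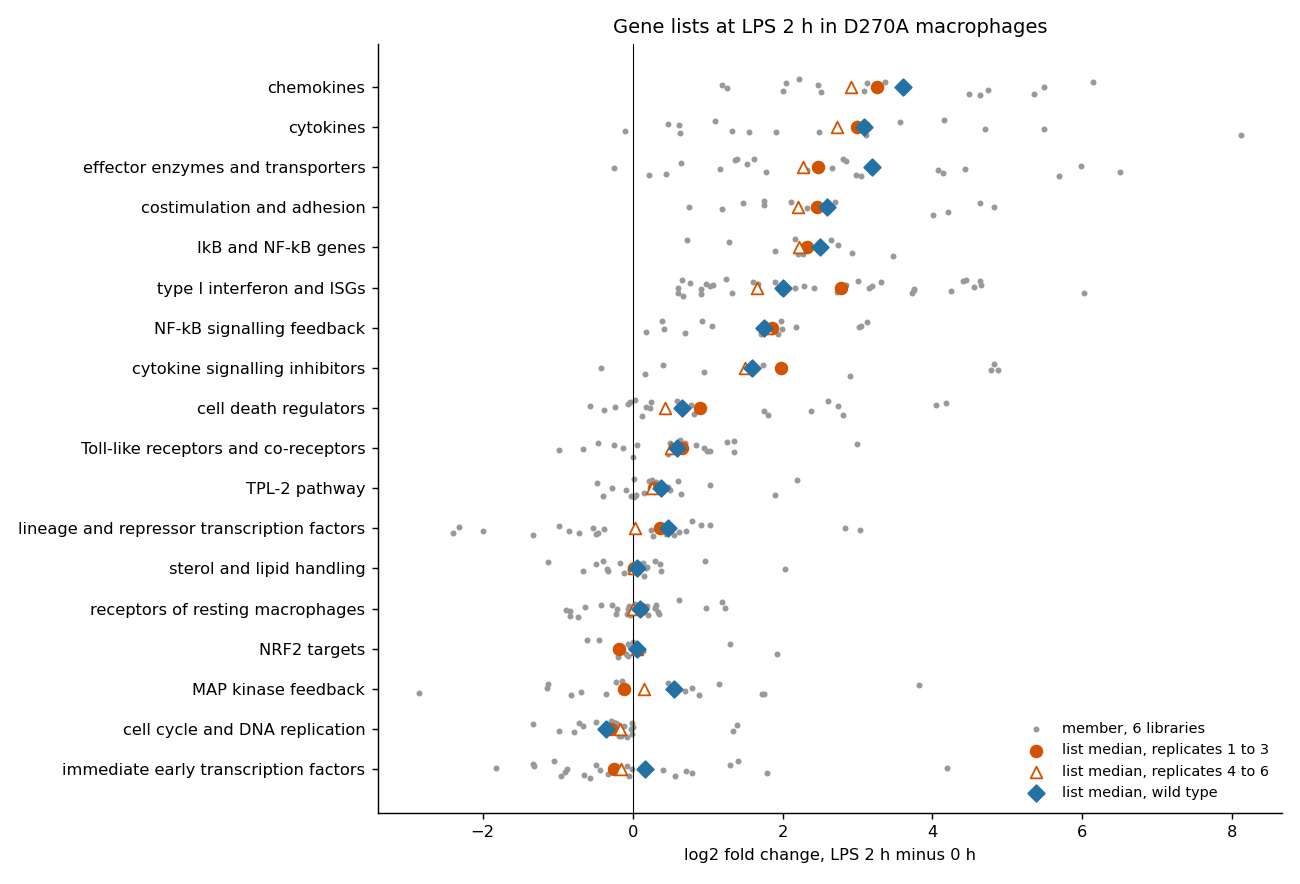
Log2 fold change at 2 h (x axis) for the members of 18 gene lists in D270A cells (grey, 6 against 6 libraries), with the list median in replicates 1 to 3 (filled circle), in replicates 4 to 6 (open triangle) and in WT (diamond). Chemokines lie highest, with medians of 3.27 and 2.92, and the interferon list (ISGs, interferon-stimulated genes) shows the widest gap between the sets, 2.78 against 1.66.

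Surface and effector molecules of activated macrophages followed. Of 13 genes for costimulation and adhesion, 12 rose, led by Cd40 (4.82), the receptor for T cell help, and by the adhesion molecules Vcam1 (4.21) and Icam1 (4.01). Cd86 was not called (0.76). With 10 added to the linear values before the logarithm, 11 of this list were called. Of 22 effector enzymes and transporters, 18 rose and none fell, and 16 were called with 10 added to the linear values. Ptgs2, the inducible cyclooxygenase, rose by 4.14, and the arginine transporter Slc7a2, which feeds nitric oxide synthase, by 4.43. The glucose transporter Slc2a1 (-0.24), the urokinase receptor Plaur (0.65) and the polyamine enzyme Odc1 (0.45) were not called. Of 9 tested inhibitors of cytokine signalling and immune checkpoints, 5 rose and none fell: Socs1 by 4.87, Cish by 4.83, Socs3 by 4.78, Socs7 by 1.74 and the checkpoint ligand Cd274 by 2.90. Socs2 (0.95), Socs4 (0.40), Socs5 (0.17) and Socs6 (-0.42) were not called, although Socs2 was called without the 2 h replicate 4 (1.024).

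Of 22 Toll-like receptors and their partners, 5 rose and none fell, against 7.03% higher and 2.2% lower among all tested genes. Tlr2, which senses bacterial lipopeptides, rose by 2.99, Tlr1 by 1.35, the signalling kinase Irak2 by 1.35, the LPS co-receptor Cd14 by 1.25 and Tlr3 by 1.04. Under quantile normalization Cd14 (0.82) and Tlr3 were not called, and the list had 3 genes higher and 2 lower. With the libraries shifted to 1 median it had 5 higher and 1 lower. Tlr4 itself was just short of a call (-0.99), and was past it under quantile normalization and when any 1 of 5 libraries was left out. Myd88 was also not called (0.995), and was called when any 1 of 6 libraries was left out (1.003 to 1.028). Tlr3 was not called without any 1 of the 2 h replicates 1 to 3, with values of 0.92 to 0.96.

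Immediate early transcription factors, which include the best known ERK targets, showed a mixed state at 2 h. Of 24, 4 rose and 4 fell, against 7.03% higher and 2.2% lower among all tested genes. The falls were those of Fos (-1.82), Egr3 (-1.33), Myc (-1.31) and Klf4 (-1.04), each below its own resting level. Fos stood at 10.56, 10.80 and 10.94 (lowest, median and highest log2 level) at 0 h and at 8.76, 8.98 and 9.16 at 2 h. The rises were those of the orphan nuclear receptor Nr4a3 (4.19), Maff (1.79), Ier3 (1.41) and Junb (1.30); under quantile normalization Klf4 and Junb were not called. Of 17 tested genes that damp MAP kinase signalling, 4 rose and 3 fell, against the same shares of 7.03% and 2.2%. The phosphatases Dusp2 (3.82), Dusp14 (1.76) and Dusp16 (1.72) rose, as did Spry1 (1.15), while Dusp6 fell with Dusp7 (-1.14) and Spry2 (-1.13). Dusp1, a phosphatase of p38 and JNK, was not called (0.88), and neither was Errfi1, an inhibitor of EGF receptors (0.48). Spry1 lost its call when 10 was added to the linear values before the logarithm.

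Lineage and repressor transcription factors changed in both directions. Of 24 tested, 3 rose and 4 fell, against 7.03% higher and 2.2% lower among all tested genes. Under quantile normalization 2 were called higher and 5 lower. Besides Cebpa, the falls included those of Hhex (-2.0) and the circadian repressor Bhlhe41 (-1.33). Tfec (3.03), a relative of MITF, and Arid5a (2.84), which stabilises cytokine mRNAs, rose, and so did Zeb2 (1.03), although not under quantile normalization. Maf (-0.98) was just short of a call, and was past it under quantile normalization and when any 1 of 4 libraries was left out. Of 27 receptors of resting macrophages, 2 rose, the IL-10 receptor chain Il10ra (1.2) and P2ry13 (1.23), and none fell, close to the 7.03% higher and 2.2% lower among all tested genes. The median of that list was 0.029, with the chemokine receptor Ccr2 at -0.83. Il10ra was not called and Ccr2 was called under quantile normalization, under which the list median turned to -0.28.

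Cell death regulators rose in 8 of 22 cases and none fell. These included the survival genes Bcl2a1d (4.18) and Cflar (2.81), the inflammasome genes Casp4 (2.38) and Nlrp3 (1.81), the NOD adaptor kinase Ripk2 (2.60) and the death gene Bcl2l11 (1.75). Bcl2a1d has near-identical copies, so its reads may be shared among them. Of 27 cell cycle genes, 2 rose, Mki67 (1.33) and Ccnd2 (1.39), and 1 fell, E2f2 (-1.34). Mki67, Ccnd2 and the lipid gene Scd2 below were not called in replicates 4 to 6 alone, where their log2 fold changes were 0.93, 1.00 and -0.97. Lipid genes were mostly not called: of 20, the cholesterol hydroxylase Ch25h rose (2.04) and the desaturase Scd2 fell (-1.13). Of 12 targets of the antioxidant factor NRF2, Sqstm1 (1.93) and Txnrd1 (1.29) rose, and Hmox1 was not called (-0.61). Txnrd1 was not called under quantile normalization. The counts of the cell cycle and lipid lists lie near the shares of all tested genes called, 7.03% higher and 2.2% lower, so they are not results about these lists, and 2 of 12 NRF2 targets is a small count.

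Within the TPL-2 pathway itself 3 of 22 genes rose and none fell, against 7.03% higher and 2.2% lower among all tested genes. This is a small count, and under quantile normalization 2 were called. Map3k8, which encodes TPL-2, rose by 2.19 ± 0.054 (SE). Map3k8 stood at 8.77, 8.82 and 8.95 (lowest, median and highest log2 level) at 0 h and at 10.87, 11.03 and 11.21 at 2 h, so the mutant mRNA was induced. Nfkb1, whose p105 product holds TPL-2, and Ikbkb, the IkB kinase that frees it, were the others (1.90 and 1.03). Ikbkb lost its call when any 1 of the 2 h replicates 1 to 3 was left out (0.95 to 0.98). Downstream, the kinase gene Map2k1 (MEK1) was not called (0.38). Genes known as markers of other cells were not all still: Lck, a T cell kinase, rose from 3.59 to 5.68, and the dendritic cell genes Xcr1 (1.28) and Zbtb46 (1.49) rose from levels near the filter, while Cd3e and Flt3 stayed below it. With 10 added to the linear values, Xcr1 and Zbtb46 were not called.

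The same contrast in WT cells gave 918 genes called higher, 7.72% of those tested, and 391 called lower, 3.29%. Of the genes that rose, 732 did so in both genotypes, which is 87.7% of the D270A list and 79.7% of the WT list. Of those that fell, 228 were shared, which is 87.4% of the D270A list and 58.3% of the WT list, and 0 genes were called in opposite directions. Of the 163 genes called lower in WT but not in D270A cells, 0 had a called difference between the genotypes and 64 had one by adjusted p alone. Across the tested genes, which are not independent, Pearson's r between the log2 fold changes was 0.96 and the slope of D270A on WT was 0.88. Tested directly as the difference between the responses, 63 genes (0.53%) had a response at least 2-fold more negative in D270A cells and 7 (0.0589%) a more positive one. Of the 63, 34 rose in both genotypes, so that the rise was smaller, 27 were not called in D270A cells, and 2 fell, Egr3 and Myc. The 186 genes called higher in WT but not in D270A cells included 19 whose difference passed this test, and for 118 of the 186 the difference had an adjusted p under 0.05.

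Sphk1, the kinase that makes sphingosine 1-phosphate (chr11:116530836-116536675), had the largest loss. Sphk1 stood at 2.82, 2.91 and 3.37 (lowest, median and highest log2 level) at 0 h and at 3.82, 4.39 and 4.96 at 2 h in D270A cells, and the 4 WT libraries stood at 7.72, 7.97, 9.66 and 7.34 at 2 h, all above every D270A library. Its rise of 1.39 compared with 5.25 in WT, a difference of -3.86 ± 0.29 (SE, adjusted p = 1.08e-14). The D270A rise of Sphk1 was not called with 10 added to the linear values. Il10 at 2 h was 9.22, 9.38, 9.69 and 9.47 in the WT libraries, against at most 7.07 in D270A cells, a difference in response of -2.47 ± 0.19 (SE). The other large losses were those of Errfi1 (-2.39), Il1a (-2.25) and Serpinb2, the inhibitor PAI-2 (-2.13). Il1a and Il1b, the IL-1 cytokines, still rose in D270A cells by 3.13 and 3.57, compared with 5.38 and 5.66 in WT. Of the 19 tested cytokine genes, 7 had a called difference, all negative: Il10, Il1a, Il1b (-2.10), Il1rn (-1.23), Il23a (-1.73), Lif (-1.31) and Csf2 (-1.23). Over all tested genes 0.53% had a called negative difference.

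Among 24 immediate early factors the difference was called for 5, Egr1 (-1.98), Fosl2 (-1.66), Egr3 (-1.45), Maff (-1.24) and Myc (-1.21). The share of all tested genes with a called negative difference was 0.53%. Egr1, a zinc finger factor and direct target of ternary complex factors, was 7.01 to 7.41 in D270A cells at 2 h and 8.99, 9.28, 9.27 and 8.53 in WT. Fosl2, the AP-1 subunit FRA2, was not called in D270A cells, while it rose by 1.66 in WT. Its log2 fold change in D270A cells was -0.0033, with an interval of -0.23 to 0.22 at 95% confidence. For Fos the difference was not called, with an interval of -0.54 to 0.02. Egr3 already differed at rest, with 7.60 to 8.13 in unstimulated D270A cells and 6.81 to 7.20 in unstimulated WT cells, while its means at 2 h were 6.49 and 7.12. Of the interferon list 0 of 36 genes were below WT by a called difference, where 0.53% of all tested genes were. With an adjusted p alone, by which 6.94% of all tested genes were higher and 8.6% lower, 3 of the 36 were higher, namely Ifnb1, Ifit3 and Tnfsf10, a share near that background, and 0 lower. Between D270A replicates 1 to 3 and WT 4 to 6, and between D270A 4 to 6 and WT 7 to 9, Ifit3 differed by 1.25 and 0.24 and Tnfsf10 by 1.44 and 0.14. The second comparison had only WT replicate 7 at 2 h. Isg15, a ubiquitin-like effector, had a difference of -0.0043 with an interval of -0.28 to 0.27, and Il12b one of 0.24 with an interval of -0.52 to 1.01.

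Over all libraries each of the 22 effector genes had a smaller log2 fold change in D270A cells than in WT, where 44.2% of all tested genes did. With D270A replicates 1 to 3 against WT 4 to 6 this held for 17 of the 22 (46% of all), with Nos2 at a difference of 1.45. With D270A 4 to 6 against WT 7 to 9 this held for 22 (49.7% of all), with Nos2 at -1.43. In that comparison WT at 2 h was the single replicate 7. The list was chosen with earlier results of these data known, so these counts are descriptions without a test. Of the 22 differences over all libraries 6 were called: Sphk1, the collagenase Mmp13 (-1.37), the acute phase protein Saa3 (-1.28), Plaur (-1.21), Ptgs2 (-1.19) and the oxidised LDL receptor Olr1 (-1.16). For comparison, 0.53% of all tested genes had a called negative difference. Of the chemokines, Ccl22 (-1.12) and Cxcl3 (-1.09) had called differences, while both still rose in D270A cells, by 4.75 and 4.49. Cish (-1.25), an inhibitor of STAT5 signalling, and the MAP kinase-induced gene Phlda1 (-1.5) were also below WT. Cebpd, a transcription factor that sustains inflammatory genes, had a log2 fold change of 0.46 in D270A cells and 1.98 in WT. Those of the cyclin Ccnd2 were 1.39 and 2.84. None of the genes of the NF-kB and IkB list, the NF-kB feedback list, the costimulation list or the Toll-like receptor list had a called difference, which few genes had in all. By adjusted p alone the response was smaller in D270A cells for 6 of 11 NF-kB and IkB genes, 6 of 14 feedback genes, 1 of 13 costimulation genes and 2 of 22 Toll-like receptor genes, and larger for 1 of the last. Over all tested genes 8.6% were smaller by this measure, so the costimulation and Toll-like receptor counts lie near the background. Nfkbia, for example, differed by -0.36 (adjusted p = 0.00353).

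The 7 genes with a more positive response were Tnn (1.95), Tgtp1 (1.64), Gm8221 (1.37), Sgk1 (1.24), Dusp8 (1.17), Apol7c (1.11) and Ifnb1 (1.01). Sgk1, a kinase of the AKT type, was the 1 gene among them called in D270A cells and not in WT. Sgk1 stood at 10.56, 10.68 and 10.78 (lowest, median and highest log2 level) at 0 h and at 11.80, 12.004 and 12.05 at 2 h, and the WT libraries at 2 h were 10.91, 10.76, 10.68 and 10.81. Ifnb1 in WT at 2 h was 8.43, 8.19, 7.81 and 8.51, below every D270A library. WT at 2 h held replicates 4 to 7 only. The labels tie no WT number to a D270A number; WT 4 to 6 were set against D270A 1 to 3, and WT 7 to 9 against D270A 4 to 6. This match rests on the data and not on the design: the differences between the sets at 0 h correlated at 0.61 across genes between the genotypes. With D270A replicates 1 to 3 against WT replicates 4 to 6, 57 genes had a more positive response, and with D270A 4 to 6 against WT 7 to 9, where WT at 2 h is the single replicate 7 and is assumed to vary like the other groups, there were 8. The genes with a more negative response numbered 64 and 60. Sgk1 differed by 1.30 and 1.16 in these comparisons and Ifnb1 by 0.95 and 0.89, each short of the 2-fold threshold. Tnn differed by 3.10 and 0.41, the second not called, and the interferon-inducible GTPase Tgtp1 by 3.0 and 0.47. The median difference of the interferon list was 0.70 in the first comparison and -0.065 in the second. Tgtp1 lost its call when any 1 of the D270A 2 h replicates 1 to 3 (adjusted p = 0.0652 to 0.074) or of the WT 2 h replicates 6 or 7 was left out, and Gm8221 without WT 2 h replicate 7 (adjusted p = 0.0502). Gm8221 and Apol7c belong to 1 gene family whose copies may share reads.

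**Figure D4:**
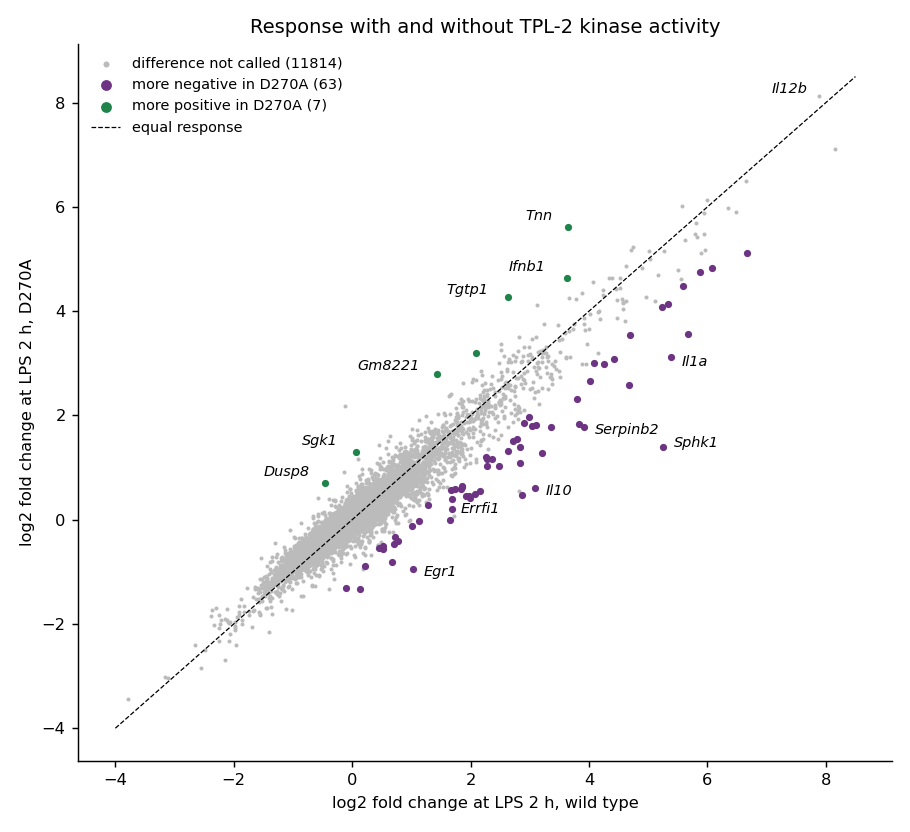
Log2 fold change at 2 h of each tested gene in WT (x axis, 4 against 6 libraries) and D270A cells (y axis, 6 against 6 libraries); the dashed line marks equal responses and colours mark called differences. Most genes lie along the line; the 63 genes below it include Sphk1, Il10 and Il1a, and the 7 above it include Tnn, Sgk1 and Ifnb1.

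The earlier times were compared by level only, since they share the unstimulated libraries. Of the genes called higher at 2 h, 764 had their highest mean at 2 h, 69 at 1 h and 2 at 0.5 h, Zfp36 (1.07 at 2 h, not called under quantile normalization) and Ier3. Their median change was 0.047 at 0.5 h, 0.57 at 1 h and 1.65 at 2 h. Il10 had been high at 0.5 h (8.71) and 1 h (9.25) in D270A cells and was at 6.87 by 2 h, while WT stood at 9.78 and 9.44 at 1 and 2 h. Egr1 in D270A cells peaked at 8.91, against 13.32 in WT. Fos reached 12.80 at 0.5 h, against 13.84 in WT, before it dropped below its resting level in both. Cxcl2 (14.43) and Il1b (13.81) were highest at 1 h in D270A cells, whereas Il12b and Cxcl10 were still climbing at 2 h. Sgk1 was above rest at 1 h in both genotypes (12.05 and 11.67) and differed at 2 h (11.97 and 10.79).

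**Figure D5:**
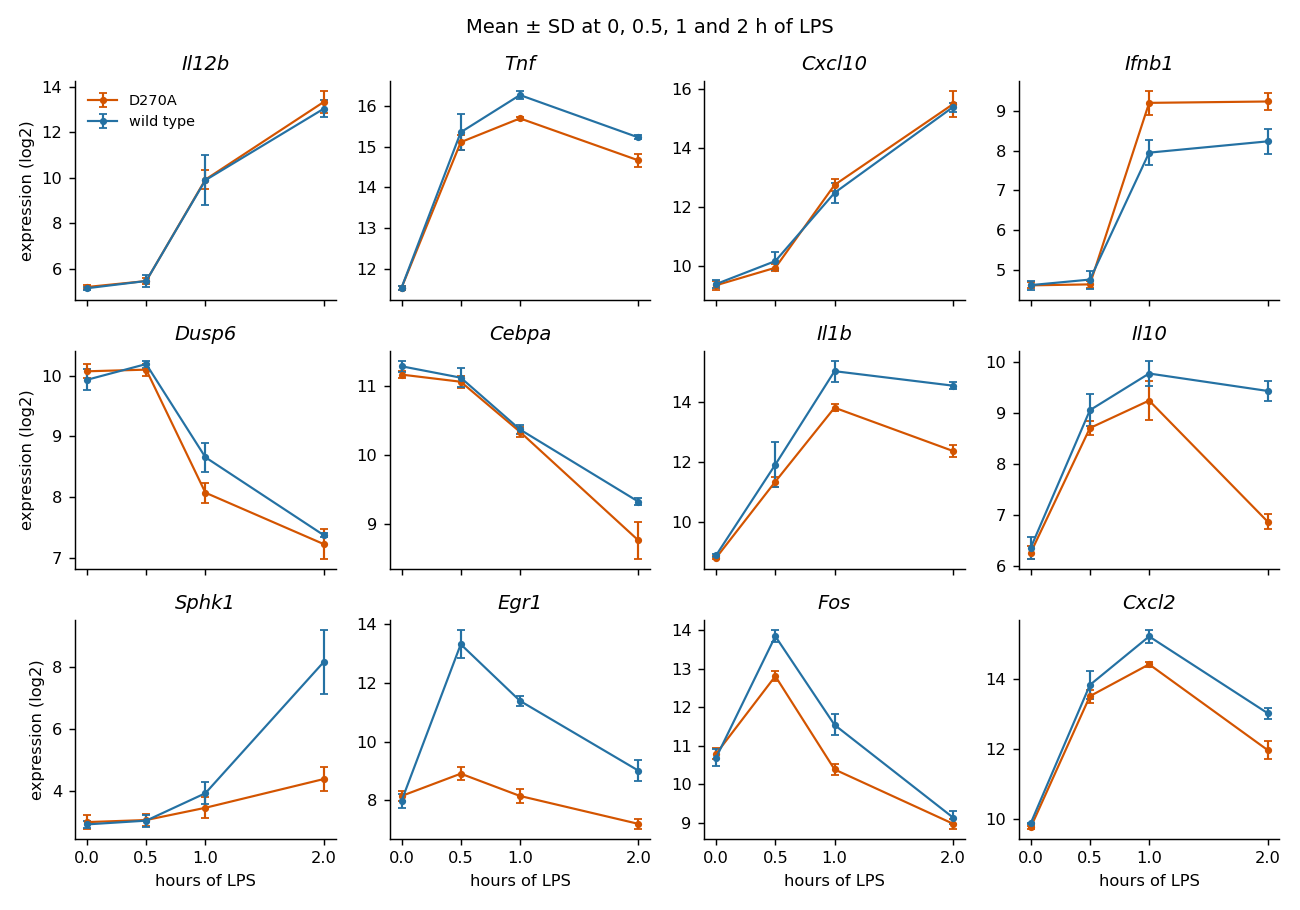
Mean log2 level (y axis) ± SD of 12 genes at 0, 0.5, 1 and 2 h of LPS (x axis) in D270A (orange, n = 6) and WT cells (blue, n = 6, and 4 at 2 h). Il12b and Cxcl10 end at 13.33 and 15.47 in D270A and at 13.03 and 15.37 in WT, Ifnb1 ends higher in D270A (9.24 against 8.24), and Il10 and Sphk1 end lower.

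Positions on the genome were taken from RefSeq. By its coordinates, 34.8% of the 834 matched genes called higher had another such gene within 100 kb, against 17.5% of all 11842 matched genes. Chemokine genes are 1 such group: Cxcl1 (chr5:90891245-90893121) and Cxcl2 (chr5:90903899-90905938) both rose. Gbp2 (chr3:142620663-142638008) and Gbp5 are another, with rises of 3.16 and 6.02. Genes that fell had another that fell within this distance in 13% of cases, against 7.48% of all. The median span was 23.7 kb for genes that rose, 17.6 kb for those that fell and 22.6 kb overall.

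Promoter windows like those printed above were on hand for 662 of the genes that rose and 200 of those that fell. The NF-kB letters were in 2.76% of the windows of genes that rose, 0.752% of those that fell, 1.05% of those of all tested genes and 1.11% of all 32851 windows of the reference. The interferon-stimulated response element was in 11%, 4.89%, 7.24% and 8.56% in the same order, and the AP-1 letters in 9.77%, 7.52%, 5.26% and 7.81%. Of the genes with a more negative response in D270A cells, 13 of 49 had an AP-1 match, Sphk1 among them, against 602 of 9526 tested genes. Some genes have several overlapping windows, and these shares are descriptions without a test.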

How the data were processed

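RNA-seq values were those deposited by the authors as 1 table of normalised log2 levels (18098 genes, 119 libraries); reads were aligned with STAR, quantified with RSEM and normalised with DESeq2, and the submitters' processing notes list STAR 2.5.1b, RSEM 1.2.29, DESeq2 1.10.1 and mm10. Which log transformation they used is not stated in those sources. In the table, 1 value above 25 was set missing. Testing was limited to the 11884 genes that reached 10 on a linear scale in 4 or more libraries and used limma 3.58.1 (R 4.3.3) in 1 group-means model over 62 libraries of WT, D270A and Elk1Elk4KO cells at 0 to 2 h, with Benjamini-Hochberg adjustment. Calls needed an adjusted p under 0.05 and a log2 change of at least 1. The test was tried on simulated data, but the outcome is not reported here and no result rests on it.

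Named genes were the 10 largest changes each way among genes with groups that did not overlap and a log2 mean of at least 5 in the higher group, the 5 largest differences from WT each way, and members of gene lists. Some of these genes are not reported here. Members and lists were chosen with earlier results of these data known. Same-numbered D270A libraries deviated together (correlations 0.12 to 0.41, each over 0.1), although replicate 5 (0.12) did not correlate best with its own number. The main fit did not pair them, and the numbers served as a block only in an alternative fit of the 12 D270A libraries. Alternatives covered scaling, filters, thresholds, pseudocount, pairing, replicate sets and left-out libraries. Figures used matplotlib 3.10.9.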

Additional observations from a re-analysis of the deposited data

Results flagged for a closer look

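Within 604 groups of 4 or 6 libraries (151 genes named, 4 groups each), a library lay apart from the others by Dixon's test in 25; chance alone gives this in about 1 group in 20. The values that follow are log2 levels. In the unstimulated D270A group, replicate 1 stood apart as the highest for Ifnb1 (4.756) and Olr1 (4.534). Replicate 3 of the unstimulated D270A libraries was apart as the highest for Tnn (2.537). Apart from its group, unstimulated D270A replicate 3 was the lowest for Klf4 (8.412). In the unstimulated D270A group, replicate 4 stood apart as the highest for Tnfaip3 (11.86) and Ccl9 (15.30). Replicate 4 of the unstimulated D270A libraries was apart as the lowest for Sqstm1 (13.74) and Lck (3.179). Apart from its group, D270A 2 h replicate 2 was the highest for Fscn1 (11.85). In the unstimulated WT group, replicate 7 stood apart as the lowest for Nfkb1 (11.27). Replicate 8 of the unstimulated WT libraries was apart as the lowest for Cebpa (11.13). Apart from its group, unstimulated WT replicate 9 was the lowest for Il12b (5.041) and Arid5a (7.466). In the unstimulated WT group, replicate 9 stood apart as the highest for Fosl2 (10.43) and Plaur (10.56). Replicate 6 of the WT 2 h libraries was apart as the highest for Arhgap25 (10.03) and Errfi1 (11.84). Apart from its group, WT 2 h replicate 7 was the lowest for Nfkbid (9.657), Nfkb1 (13.37), Il27 (10.46), Mx2 (11.58), Irf7 (11.79), Mx1 (12.85), Ch25h (8.745) and Saa3 (8.722).

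The responses of D270A and WT cells differed by a test of the difference (limma, adjusted p under 0.05 and a difference of at least 1) for 33 named genes. The response was more negative in D270A cells, by the difference of log2 fold changes, for Sphk1 (-3.856), Il10 (-2.474), Errfi1 (-2.389), Il1a (-2.249), Serpinb2 (-2.131), Il1b (-2.098), Il1rn (-1.226), Il23a (-1.732), Csf2 (-1.227), Lif (-1.312), Cxcl3 (-1.088), Egr1 (-1.981), Egr3 (-1.451), Myc (-1.211), Fosl2 (-1.663), Maff (-1.242), Cish (-1.251), Ptgs2 (-1.191), Plaur (-1.206), Ccnd2 (-1.448), Ccl22 (-1.125), Cebpd (-1.522), Mmp13 (-1.365), Saa3 (-1.276), Olr1 (-1.156) and Phlda1 (-1.498). It was more positive for Tnn (1.954), Tgtp1 (1.637), Gm8221 (1.366), Sgk1 (1.236), Dusp8 (1.166), Ifnb1 (1.01) and Apol7c (1.111).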

How the results depend on the processing

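With the natural logarithm of 2 (0.693) as the fold threshold, 1280 genes were called higher and 728 lower in D270A cells, 994 lower in WT, and 28 responses were more positive and 145 more negative in D270A cells. By adjusted p alone the counts were 4149 and 4116 in D270A cells, 4122 and 4377 in WT, and 825 and 1022 for the difference. These changes follow from the lower threshold. With D270A replicates 1 to 3 and WT replicates 4 to 6 only, 57 responses were more positive; the cause was not tested. Slfn4 turned from a rise to -0.0088 with D270A replicates 4 to 6 only, and the cause was not tested.

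Leaving out each library in turn gave 801 to 873 genes higher and 251 to 275 lower in D270A cells, 903 to 941 higher and 373 to 428 lower in WT, and 5 to 10 more positive and 56 to 78 more negative responses. With the replicate number as a replicate block, fitted on the 12 D270A libraries only, 834 genes were higher and 260 lower, and the 151 named D270A fold changes kept their calls; the differences from WT were not run with the block. Quantile normalization gave 734 and 304 and shifted the median of all tested genes to -0.10, and a term for the replicate set, chosen after seeing the data, gave 835 and 261. All other settings kept each count within 1.5 times. The deposited values hold no read depth, so the precision of low levels is unknown. Each result over all libraries rests on 4 or 6 libraries per group. Results by replicate set rest on fewer, and the second WT set at 2 h is the single replicate 7.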
